A study of Mus musculus with 4 samples.

Results

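Of 1206 β-cells captured from islets exposed to IFN-γ alone, 91 held no unique molecular identifier (UMI) of either Iigp1 or Gbp2, a pair of IFN-γ-induced GTPase genes, and these 91 cells are described here. They were 7.55% of the β-cells of that library (exact binomial interval 6.12 to 9.18%). They are called double-negative cells, and the 1000 β-cells with at least 1 UMI of each gene are called double-positive cells. The remaining 115 β-cells held a UMI of 1 gene only, Iigp1 in 76 and Gbp2 in 39. β-cells were barcodes with 200 to 4000 detected genes, at most 12% mitochondrial UMIs, at least 4000 UMIs, at least 5% of UMIs from Ins1 and Ins2, and under 1% from each of Gcg, Sst and Ppy. The series holds 4 libraries with 12571 barcodes, made from islets of adult male C57BL/6 mice (C57BL6/J in the study's methods) that were pooled and then split into an untreated sample and samples exposed for 6 h to IL-1β, IFN-γ or both cytokines. All groups were of this 1 strain with no genotype given, each condition is 1 library of pooled animals, and the islets were dissociated after the exposure. The untreated, IL-1β and combined libraries held 50731370, 20056630 and 25716645 UMIs. The IFN-γ library held 31209339 UMIs in 3694 barcodes, of which 1949 passed the limits on genes, UMIs and mitochondrial share. It shared 4 barcodes with the untreated library, 1 with the IL-1β library and 2 with the combined library, and none of these was a double-negative or a double-positive cell.

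IFN-γ binds a receptor of 2 chains, Ifngr1 and Ifngr2, whose kinases Jak1 and Jak2 start the signal to the nucleus. There it acts through gamma-activated sites (GAS) and, by way of the induced transcription factor IRF1, through interferon-stimulated response elements (ISRE). The target genes include the immunity-related GTPases and guanylate-binding proteins, the immunoproteasome and the peptide loading machinery of MHC class I. The heat shock response is a separate program, in which HSF1 binds heat shock elements (HSE) and raises cytosolic chaperones such as Hsp70, encoded by Hspa1a and Hspa1b.

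The windows from 250 bases before to 50 bases after the RefSeq transcription start (GRCm38.p6) were searched for these elements. The letters searched were TTCNNNGAA for a GAS, a pair of GAAA runs with 2 bases between them for an ISRE, and GAA, TTC and GAA in this order with 2 bases between each for an HSE, on both strands, and matches may overlap. Of 32841 promoter windows, 8.30% held a GAS match, 3.44% an ISRE match and 0.603% an HSE match. Of 15 interferon-inducible GTPase genes including Gbp2, 10 had a promoter entry, of which 9 held an ISRE match and 6 a GAS match, and members of the family share sequence. Of 22 heat shock genes 17 had an entry and 4 of them held an HSE match, while the windows of Hspa1a and Hspa1b did not hold these letters. Hspd1 and Hspe1, on opposite strands, were each counted for the same bases. The stretches below lie upstream of the start of genes that differed between the groups and held a match there. Matches are in capitals, 5′ to 3′ on the strand of the gene. Hspb1 and Dnajb1, like Hspa1a and Hspa1b, held no HSE match and are not shown. Gbp2 chose the cells, Igtp, Irgm1 and Gbp3 are GTPase genes that did not, Irf1 is the transcription factor above, and Hspe1 is a heat shock gene. They are at chr3:142620584-142620633 (plus strand), chr11:58199491-58199551 (plus strand), chr11:48871421-48871470 (minus strand), chr3:142559979-142560034 (plus strand), chr11:53769904-53769952 (plus strand) and chr1:55088039-55088096 (plus strand).
Gbp2: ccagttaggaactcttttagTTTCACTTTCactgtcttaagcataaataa
Igtp: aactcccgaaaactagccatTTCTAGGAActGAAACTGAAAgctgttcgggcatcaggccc
Irgm1: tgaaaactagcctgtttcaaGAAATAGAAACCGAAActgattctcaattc
Gbp3: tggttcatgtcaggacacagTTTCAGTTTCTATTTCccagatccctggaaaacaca
Irf1: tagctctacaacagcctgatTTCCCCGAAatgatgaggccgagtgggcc
Hspe1: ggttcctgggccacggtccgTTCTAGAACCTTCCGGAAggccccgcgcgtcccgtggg
Igtp held a GAS match next to an ISRE match, Gbp2 held an ISRE match, Irgm1 and Gbp3 each held 2 overlapping ISRE matches, Irf1 held a GAS match and Hspe1 held 2 overlapping HSE matches. A match is a run of letters and not a measured binding site. Iigp1, Hsp90aa1 and Wars had no entry.

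The double-negative cells were shallower than the double-positive cells, which bears on every count of 0. They held a median of 8076 UMIs (range 4072 to 20110) and 2401 genes, against 11636 UMIs (4475 to 24753) and 3098.5 genes. Their median share of mitochondrial UMIs was lower, 5.15% against 6.66%, and so was the share of insulin UMIs, 23.5% against 28.9%. Ribosomal protein genes took 11.1% of their UMIs against 8.21%. These ranges overlapped widely. When each cell was thinned at random to 4000 UMIs, 132 of the 1206 β-cells (10.9%, 9.24 to 12.8%) held none of the pair. Among the 1022 β-cells with at least 8000 UMIs the share was 4.50%, and with Igtp and Irgm1 as the pair it was 4.98%.

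The cells were chosen by their measured UMIs of Iigp1 and Gbp2, and since all other genes were read in the same cells, every contrast between the groups is a description and no test was made. The cells of 1 library are not replicates, and the intervals given are 95% intervals that cover counting error only. Double-positive cells held a median of 12 Iigp1 UMIs (range 1 to 135) and 9 Gbp2 UMIs (1 to 77). In the untreated library 1107 of 1135 β-cells held neither gene and none held both. In the IL-1β library 355 of 1049 held neither, 691 held Gbp2 alone and 3 held both, so that Gbp2 is not a mark of IFN-γ only. With both cytokines 75 of 1224 β-cells (6.13%, 4.85 to 7.62%) held neither and 1015 held both.

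**Figure D1:**
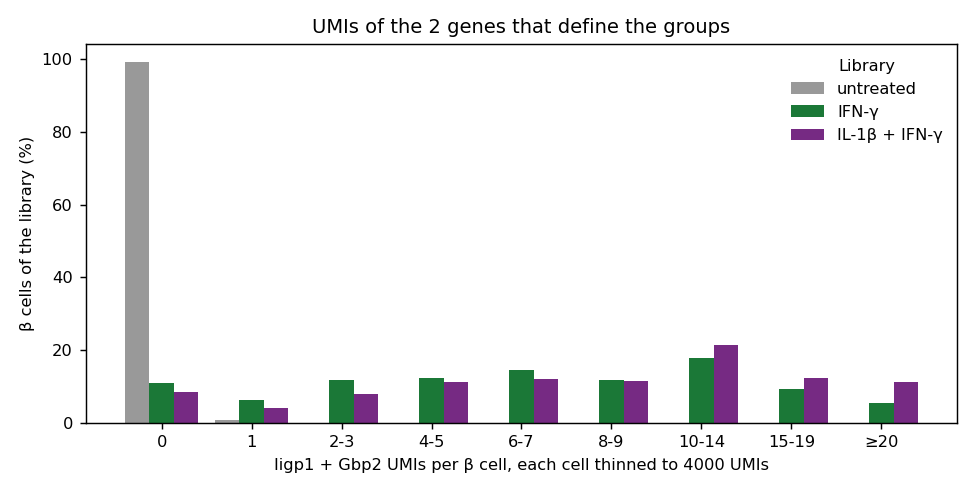
Percent of the β-cells of a library (y axis) by the summed Iigp1 and Gbp2 UMIs of a cell (x axis) in the untreated, IFN-γ and combined libraries, each cell thinned to 4000 UMIs. In the untreated library 99.3% of β-cells are at 0, against 10.9% with IFN-γ and 8.42% with both cytokines, where most cells spread from 2 to over 20 UMIs.

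Levels are given in CPM, the summed UMIs of a gene per 1000000 UMIs of the same cells, and ratios are of these levels. An ln fold is on the ln(UMIs per 10000 + 1) scale of summed counts, which understates the difference of low genes. A gene low in both groups cannot reach an ln fold of 0.5 on this scale, whatever its ratio. A gene was compared where at least 10% of the cells of either group held it, and a size of 0.5 in ln fold was used as the threshold. Of 8048 genes compared, 23 were higher (0.286%) and 50 were lower (0.621%) in double-negative than in double-positive cells by at least 0.5, the rule pair among the lower. The counts depend on the scale, with 204 higher and 401 lower at a pseudocount of 0.1 in place of 1, and 85 lower when the hormone genes were left out of the totals. These shares describe the contrast that chose the cells. The median ln fold over all genes was 0.0029. The median log2 ratio over 6755 genes was 0.11, and 0.020 when the hormone genes were left out of the totals.

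Genes of the receptor complex were under the size of 0.5 between the groups, but Ifngr1, Ifngr2 and Jak2 were too low to reach it. Ifngr1 was at 15.7 (8.11 to 27.4) CPM in double-negative cells, 10.4 in double-positive cells and 7.26 in untreated β-cells. Ifngr2 was at 5.23 (1.43 to 13.4), 5.13 and 5.6, from 4 UMIs in the double-negative cells, with a ratio of 1.02 (0.269 to 2.75) that leaves a difference of several-fold possible. Jak1 was at 106 (84.2 to 132), 117 and 96.7, and Jak2 at 18.3 (10.02 to 30.7), 30.8 and 12.9. The intervals of the ratio of double-negative to double-positive cells included 1 for all 4 genes, which does not show equal levels.

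Downstream of the receptor, Irf1 was lower in double-negative cells. Of the receptor and signaling genes compared, 17 were under the size of 0.5, some of them too low to reach it. Irf1, encoding the transcription factor (chr11:53770014-53778374, GRCm38), was at 82.4 (63.3 to 105) CPM in double-negative cells, 218 (209.6 to 227) in double-positive cells and 19.6 in untreated cells, that is 2.64-fold (2.06 to 3.45) lower than in double-positive cells. At 4000 UMIs a cell, 26.4% of double-negative, 55.8% of double-positive and 7.22% of untreated β-cells held an Irf1 UMI, so the groups overlapped. Irf8, a related factor, was at 0 in double-negative cells, with an upper limit of 4.83, against 17.3, and Irf9 was at 24.9 (14.97 to 38.8) against 62.1. Socs1, which inhibits JAK kinases, was at 6.54 (2.12 to 15.3) against 41.2. Of these, Irf1 was past the size of 0.5, with an ln fold of -0.56, while Irf8, Irf9 and Socs1 were at -0.16, -0.26 and -0.28. At their double-positive levels these 3 genes could not reach 0.5 even with 0 UMIs in double-negative cells. Their place under the size thus does not show a smaller change than that of Irf1.

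The interferon-inducible GTPases not used to choose the cells were far lower in double-negative than in double-positive cells and above the untreated level. These enzymes act on the membranes of vacuoles that hold intracellular pathogens. Summed over the 13 of 14 listed genes in the files, they were at 334 CPM (294 to 377) in double-negative cells, 2511 in double-positive cells and 30.3 in untreated β-cells. The double-negative sum was 7.52-fold (6.65 to 8.55) lower than that of double-positive cells and 11.02-fold (9.48 to 12.8) higher than that of untreated cells. The first ratio was 4.51-fold when cells were chosen after thinning to 4000 UMIs and 24.6-fold with Igtp and Irgm1, themselves on the list, as the pair. How many of the GTPase UMIs in double-negative cells came from RNA free in the cell suspension was not tested, and this holds for all response genes below.

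Among single members, Igtp was at 90.3 (70.2 to 114) against 611, and at 3.28 in untreated cells. Irgm1 was at 83.7 (64.5 to 107) against 542 and 11.96 untreated, and Gbp7 at 81.1 (62.2 to 104) against 458 and 8.63. These members stood between the untreated and the double-positive level. Gbp3 at 5.23 (1.43 to 13.4) against 189.8 and Gbp4 at 6.54 (2.12 to 15.3) against 202 rested on 4 and 5 UMIs, with untreated values of 2.27 and 0.151, and Ifi47 was at 0 with an upper limit of 4.83 against 49.2. The members thus did not keep the proportions they had in double-positive cells. All 13 were compared, 7 of them were lower by 0.5 and none higher, with a median ln fold of -0.62, and a gene could enter through its level in the double-positive cells alone.

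Per cell, the 13 GTPase genes summed to a median of 1 UMI in double-negative cells (range 0 to 16) and 28 in double-positive cells (3 to 115). At 4000 UMIs a cell, 37 of 91 double-negative cells (40.7%, 30.5 to 51.5%) held at least 1 such UMI, against 99.9% of double-positive and 10.6% of untreated β-cells. Of the 91 cells 54 were at 0 at this depth, and the highest value was 10.

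Genes of MHC class I presentation were lower in double-negative cells to unequal extents. Those past the size included the immunoproteasome subunits and peptide loading genes. Psmb8 was at 71.97 (54.2 to 93.7) against 363 in double-positive and 38.4 in untreated cells, Psmb9 at 48.4 (34.1 to 66.7) against 234 and 18.6, and Psmb10 at 65.4 (48.6 to 86.3) against 291 and 46.01. Tap1, a subunit of the peptide transporter, was at 30.1 (19.1 to 45.2) against 175 and 4.74. Tapbp, which tethers the transporter to class I, was at 66.7 (49.7 to 87.7), under both the double-positive level of 314 and the untreated level of 125. Nlrc5, the transactivator of class I genes, was at 0 with an upper limit of 4.83 against 22.1.

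The class I heavy chains did not move alike. H2-T23 was at 47.1 (32.99 to 65.2) against 159 in double-positive and 47.2 in untreated cells, an ln fold of -0.57. H2-K1 was at 829.6 (766 to 897) against 939 and 634 untreated, and H2-D1 at 416 (372 to 464) against 424 and 296, with ln folds of -0.11 and -0.014. B2m, the light chain, was at 305 (267 to 347) against 466 and 203, with an ln fold of -0.34. Of the 16 listed genes, all of them compared, 7 were lower by 0.5 and none higher, with a median ln fold of -0.44. The 7 were Psmb8, Psmb9, Psmb10, Tap1, Tap2, Tapbp and H2-T23.

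Of the antiviral and chemokine genes, 6 of the 20 compared of 25 listed were lower by 0.5, none was higher and the median ln fold was -0.38. Oasl2, of the oligoadenylate synthetase family, was at 19.6 (10.99 to 32.4) against 176, Ifit1 at 27.5 (17.01 to 42.004) against 156, and Ifit3 at 7.85 (2.88 to 17.1) against 97.8. Isg15, a ubiquitin-like modifier, was at 0 with an upper limit of 4.83 against 29.3. Isg20, an exonuclease, was at 136 (111 to 165) against 253, with 136 in untreated cells. Isg15 and Isg20 were under the size, with ln folds of -0.26 and -0.40, and Isg15 was too low in double-positive cells to reach it.

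The 12 other genes with the largest fold downward, named by rank after the listed genes were set aside, were Wars, Cd274, F830016B08Rik, Serpina10, Lgals3bp, Serping1, Tnfsf10, Il18bp, Snx10, Crybb3, Herc6 and Ndufa4. Wars, encoding tryptophanyl-tRNA synthetase, was at 68.04 (50.8 to 89.2) against 469 and 54.2 in untreated cells. Cd274, encoding PD-L1, the ligand of the T-cell inhibitory receptor PD-1, was at 36.6 (24.3 to 52.95) against 261 and 4.54. Tnfsf10, encoding TRAIL, was at 15.7 (8.11 to 27.4) against 135 and 3.48. For Wars the untreated level lay inside the interval of the double-negative cells, and for Cd274 and Tnfsf10 it lay below that interval. Ndufa4, encoding a respiratory chain subunit, was at 129.5 (105 to 158) against 319.8 and 289, below both other groups.

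**Figure D2:**
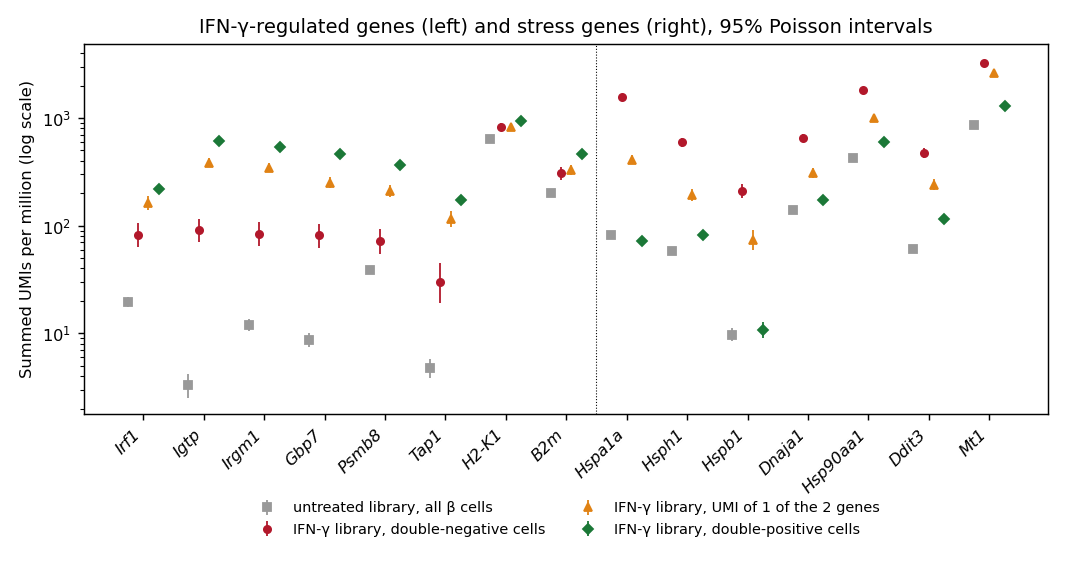
Level of 15 genes in CPM (y axis, log scale) in untreated β-cells, double-negative cells, cells with a UMI of 1 of the pair, and double-positive cells, with 95% Poisson intervals of the summed counts. For Irf1, Igtp, Irgm1, Gbp7 and Tap1 the double-negative cells stand between untreated and double-positive cells, and for the stress genes on the right they stand above every other group.

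Heat shock genes were higher in double-negative cells. Hspa1a (chr17:34969190-34972156) was at 1579 (1492 to 1671) CPM, against 72.3 (67.5 to 77.3) in double-positive cells and 82.2 in untreated β-cells, which is 21.8-fold (20.001 to 23.9) the double-positive level. Hspa1b (chr17:34956436-34959238) was at 676 (619 to 737) against 38.04 and 29.6. The pair are near-identical copies, so the division of reads between them is uncertain. A few cells held most of these transcripts, and the 10 double-negative cells with the most carried 58.2% of the Hspa1a and Hspa1b UMIs. Without them the Hspa1a ratio was 10.9-fold (9.76 to 12.2). Per cell the pair ranged from 0 to 164 UMIs with a median of 3 in double-negative cells, and from 0 to 238 with a median of 0 in double-positive cells.

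The groups overlapped in these genes, since 56 of 91 double-negative and 95 of 1000 double-positive cells held at least 1 UMI of Hspa1a or Hspa1b. At 4000 UMIs a cell the shares were 57.1% (46.3 to 67.5%) and 5%, against 7.49% of untreated β-cells. Other chaperones were higher as well. Hsph1, encoding Hsp110, was at 595 (542 to 653) against 81.4 and 58.3 in untreated cells, and Hspb1, encoding Hsp27, at 211 (179 to 246) against 10.8 and 9.74. The Hsp40 co-chaperones Dnajb1 and Dnaja1 were at 238 (205 to 275) against 30.7 and at 650.3 (594 to 710.1) against 173. Hsp90aa1 and Hsp90ab1, the inducible and constitutive cytosolic Hsp90 genes, stood at 1835 (1739.7 to 1933) against 601 and at 1496 (1410.2 to 1585) against 849.

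Among the mitochondrial chaperones, Hspe1 was at 578 (526 to 635) against 237 and Hspd1 at 307 (269 to 349) against 166. Hspa8, the constitutive Hsp70, was at 1302 (1222 to 1385) against 821. Hspd1 and Hspa8 were under the size of 0.5, with ln folds of 0.43 and 0.42. Of the 22 listed heat shock genes 20 were compared, 9 were higher by 0.5 and none lower, all 20 were above 0, and the median ln fold was 0.43. Cryab and Hspb8 did not pass the detection limit. Summed over the list, the genes took 10239 CPM in double-negative cells, 3541 in double-positive cells and 2843 in untreated cells.

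Counting the same cells the other way, the share of double-negative cells differed with the Hspa1a and Hspa1b content. Among the 1072 β-cells of the IFN-γ library with no such UMI at 4000 UMIs a cell, 3.64% (2.60 to 4.94%) were double-negative. The share was 25.6% (13.0 to 42.1%) of 39 cells with 1 or 2 such UMIs, 37.2% (22.98 to 53.3%) of 43 cells with 3 to 9, and 50% (35.8 to 64.2%) of 52 cells with 10 or more. The interval of the first share lay below the others, while the intervals of the 3 higher shares overlapped one another. Median depth differed between these cells, 11467.5 UMIs for those with none and 9068, 10294 and 9307 for the others. Of the 52 cells with 10 or more, 15 were double-positive.

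**Figure D3:**
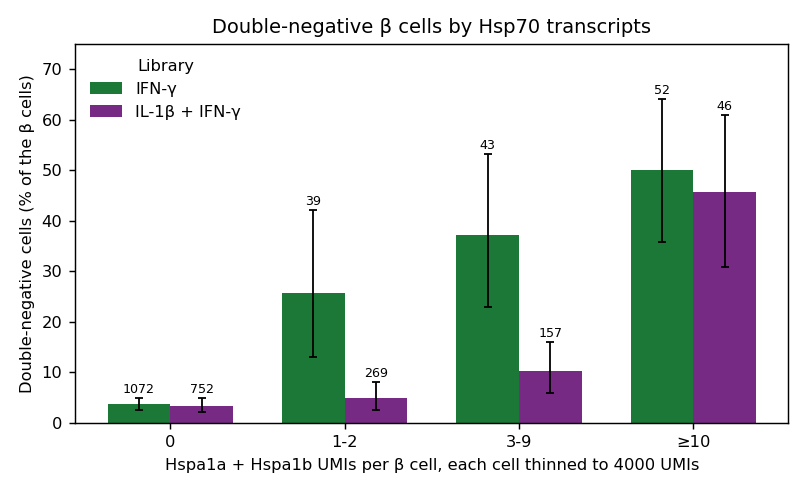
Percent of β-cells that are double-negative (y axis, with exact binomial 95% intervals) by the summed Hspa1a and Hspa1b UMIs of a cell thinned to 4000 UMIs (x axis), in the IFN-γ and the combined library, with the number of cells above each bar. The share is 3.64% and 3.32% in cells with none and 50% and 45.7% in cells with 10 or more.

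The 91 cells were divided by their measured Hspa1a and Hspa1b UMIs, and the 2 portions differed in their IFN-γ response transcripts. Of the 56 double-negative cells with an Hspa1a or Hspa1b UMI, 27 held a UMI of any of the 13 other GTPases (48.2%). Of the 35 without, 28 held such a UMI (80.0%). The GTPases summed to 192 CPM in the 56 cells and 584 in the 35, still below the 2511 of the double-positive cells. Irf1 was at 47.1 (29.8 to 70.6) and 145 (104 to 198). Response transcripts were thus lower in the portion with Hsp70 transcripts. The median depths were 8380 and 7419 UMIs, so the portion with more response transcripts was the shallower one. The median insulin share was 26.6% of UMIs in the 56 cells and 17.3% in the 35. The α-cell markers summed to 344 CPM in the 56 and 664 in the 35, against 349 in double-positive cells, led by Ttr, with an ln fold of 0.68 between the 35 and the double-positive cells, and with 3 of 6 markers at 0 in both portions. Their part in the difference between the portions was not tested.

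The 35 cells without Hspa1a or Hspa1b still differed from double-positive cells in other heat shock genes. Hsph1 was at 374 (305 to 453) in them and 720.2 (647 to 799.5) in the 56, against 81.4 in double-positive cells, and Hspb1 at 145 (104 to 198) and 248 (205 to 296) against 10.8. Of 8222 genes compared between the 35 cells and the double-positive cells, 25 were higher (0.304%) and 44 lower (0.535%) by 0.5. The heat shock list had 6 of 18 compared genes among the higher and the GTPase list 6 of 13 among the lower.

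Cells just inside and just outside the threshold of the rule were set side by side. The 35 cells with 1 UMI in all, just outside it, had Hspa1a at 1029 CPM, below the interval of the double-negative cells, and Igtp at 211, above it. Their Irf1 level of 110.4 (76.9 to 154) overlapped that of the double-negative cells. The 80 cells with at least 2 UMIs of 1 gene only had Hspa1a at 185, Irf1 at 181 and Igtp at 449. The 8 cells with exactly 1 UMI of each gene, the lowest of the double-positive cells, had no Hspa1a UMI, with an upper limit of 43.0004 CPM, Irf1 at 268 and Igtp at 233. In the double-positive cells with 3 to 9, 10 to 29 and 30 or more UMIs of the pair, Hspa1a was at 143, 36.6 and 101. Irf1 was at 179.98, 204 and 248 in these sets and Igtp at 513, 572 and 703. Hspa1a was thus over 1000 CPM in the sets with at most 1 UMI and under 200 CPM in the others, and it did not move steadily. With the 8 cells left aside, Igtp was higher in each set than in the one before, from 90.3 to 703. Irf1 went from 82.4 to 248, with near-equal levels of 181 and 179.98 on the way. The 8 cells broke this order, with wide intervals of 170 to 402 for Irf1 and 142 to 360 for Igtp.

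Stress genes outside the heat shock list were mixed. Ddit3, encoding CHOP, a transcription factor of the integrated stress response, was at 476 (429 to 528) against 114 in double-positive and 61.1 in untreated cells, 4.18-fold (3.71 to 4.69) higher than in double-positive cells. Its summed level was 686 (592 to 791) in the 35 double-negative cells without Hspa1a or Hspa1b and 358 (307 to 415) in the 56 with. At 4000 UMIs a cell the median was 1 UMI in both portions, and 62.9% (44.9 to 78.5%) and 53.6% (39.7 to 67.0%) of the cells held it. Of the 35 cells, the 4 with the most carried 49.5% of these UMIs. Hspa5, the ER chaperone BiP, was at 1545 (1458 to 1636) against 1260.4, and Trib3, a target of CHOP, at 54.96 (39.6 to 74.3) against 25.4. Of 24 listed genes of the unfolded protein and integrated stress responses 23 were compared, Ddit3 alone was past 0.5 and the median ln fold was 0.15.

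The metallothionein genes Mt1 and Mt2, which encode metal-binding proteins, were higher, at 3263 (3137 to 3394) against 1288 and at 908 (842 to 978) against 407. Untreated β-cells held 853 and 224. Per cell, Mt1 and Mt2 together ranged from 0 to 135 UMIs with a median of 29 in double-negative cells and from 0 to 183 with a median of 11 in double-positive cells, so the groups overlapped. Of the 14 genes of their list 12 were compared and these were the 2 past 0.5.

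The 12 other genes with the largest fold upward were Bnip3, Mif, Tpi1, Ero1l, Aldoa, Ubb, Tppp3, Eif1, Gapdh, Rsrp1, Krt18 and Btf3. Bnip3, a receptor for the removal of mitochondria, was at 417 (373 to 466) against 126 and 115 untreated. Tpi1, Aldoa and Gapdh encode glycolytic enzymes and were higher, Tpi1 at 504 (455 to 557) against 210.5, Aldoa at 1180.3 (1104 to 1259.9) against 596 and Gapdh at 1117 (1044 to 1195) against 619.96. Ubb, a polyubiquitin gene, was at 2229.7 (2125 to 2338) against 1199 and 1637. Tppp3, encoding a tubulin-binding protein, was at 91.6 (71.4 to 116) against 8.5, from 70 UMIs, and at equal depth 8.79% of the double-negative cells held it.

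Egr1, an early response transcription factor, was lower in double-negative cells than in either other group, at 17.01 (9.06 to 29.1) against 187 in double-positive and 73.5 in untreated cells. Of the 91 double-negative cells 10 held it, with at most 2 UMIs. Jun was at 281 (245 to 322) against 228, and within the double-negative cells at 399 (345 to 459) in those with Hspa1a or Hspa1b and 72.6 (44.3 to 112) in those without. Of 16 early response genes 12 were compared, of which Egr1 was the 1 past 0.5.

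Genes of cell death and the p53 response were not past the size, which some of them were too low to reach. Of 17 listed genes 11 were compared, with a median ln fold of 0.065. Cdkn1a, encoding the cell cycle inhibitor p21, was at 71.97 (54.2 to 93.7) against 29.8, an ln fold of 0.28. The list summed to 510.3 CPM against 363, led by Bax, a ratio of 1.40 (1.26 to 1.56).

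β-cell identity genes were under the size of 0.5 between the groups of the IFN-γ library. Mafa, a transcription factor of mature β-cells, was at 348 (307 to 393) against 488 in double-positive and 623 in untreated cells. Pdx1 was at 91.6 (71.4 to 116) against 105, and Slc2a2, the glucose transporter, at 62.8 (46.3 to 83.3) against 94.1. Hadh, a mitochondrial enzyme abundant in β-cells, was at 348 (307 to 393) against 285, and Iapp, the peptide released with insulin, at 52252 against 58272. Of 26 listed genes 25 were compared, none was past 0.5 and the median ln fold was -0.11. Insulin is not on this list, and the choice of cells set a floor on its share.

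Markers of other cells were compared next. Gcg, Sst and Ppy were capped by the choice of cells, so the sums of the lists that hold them are fixed by it in part. The α-cell list summed to 459 CPM in double-negative and 349 in double-positive cells, led by Ttr, with 3 of 6 markers at 0. The δ-cell list was at 62.8 against 61.01, led by Sst, with 2 of 4 at 0. The pair of pancreatic polypeptide cell markers was at 157 against 631, and Pyy, which most double-positive cells held at 0 or 1 UMI and 1 cell at 1312, was at 51.03 against 436. Macrophage markers summed to 39.3 against 49.3, led by C1qa, with 6 of 9 at 0. Endothelial markers were at 6.54 against 6.82, led by Esam, mesenchymal markers at 1.31 against 4.797, led by Col1a1 in the first and Rgs5 in the second, ductal markers at 256 against 199, led by Krt7, and acinar markers at 32.7 against 78.3, led by Ctrb1. These lists had 3 of 7, 5 of 6, 2 of 5 and 2 of 7 members at 0 in double-negative cells. Scrublet called 14 of 2467 cells of the library doublets (0.567%), against an expected rate of 5%. Of these 14 cells, 1 was a β-cell and none was double-negative. The calls were too few to show that the double-negative cells held no doublets.

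Signs of RNA content moved with the groups. Of 104 listed ribosomal protein genes 90 were compared, 87 of them above 0 and none past 0.5, with a median ln fold of 0.24. Of the 13 mitochondrially encoded genes 12 were below 0, and mt-Nd1 at 1655 against 3185 and mt-Nd3 at 569 against 1455 were past 0.5. Malat1, a nuclear RNA, was at 13884 against 11304. Their part in the other differences was not tested.

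The summed heat shock genes and the summed GTPases stood above the untreated level in the double-negative cells. The heat shock list summed to 3.602-fold (3.52 to 3.69) the untreated level and the GTPases to 11.02-fold (9.48 to 12.8) of it. Of 8425 genes compared, 75 were higher (0.89%) and 4 lower (0.0475%) by 0.5 than in untreated β-cells. Double-positive cells against the same untreated cells had 63 of 8536 higher (0.738%) and 1 lower (0.0117%). In the first comparison 12 of 20 heat shock genes, 2 of 4 GTPases and none of 15 antigen presentation genes compared were among the higher. In the second these were none of 18, 8 of 13 and 10 of 16. Ribosomal protein genes moved as well, with 21 of 91 compared among the higher in the first comparison and 1 of 91 in the second. Of 5 listed genes of RNA quality, led by Malat1, 1 was among the higher in the first and none in the second. Their part in the other differences was not tested. The 2 comparisons share the untreated cells, and library and treatment cannot be told apart in either, with median depths of 17359 UMIs in untreated and 8076 in double-negative cells.

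The same rule applied to the library with both cytokines chose 75 double-negative and 1015 double-positive cells, all different cells from those of the IFN-γ library. Of 7707 genes compared there, 17 were higher (0.221%) and 131 lower (1.7%) in double-negative cells, and the median log2 ratio over 6069 genes was 0.17. Of 20 listed heat shock genes compared, 8 were higher by 0.5, 12 were under it, 3 of these below 0, and the median ln fold was 0.40. Among those past the size, Hspa1a was at 1656 (1561 to 1755) against 180.1, Hsph1 at 667 (607 to 731) against 115 and Hspb1 at 209 (176 to 246) against 10.9. GTPases summed to 366 against 3399, and Irf1 was at 149.6 (122 to 181) against 345. Apart from the rule pair, 21 of the 23 genes higher and 47 of the 48 lower by 0.5 in the IFN-γ library had the same sign in the combined library. Over all 7294 genes compared in both without the pair, 2635 of 3855 higher and 2057 of 3439 lower had the same sign. Past 0.5 in both libraries were 11 genes higher, of 23 and 17, and 36 lower, of 48 and 113. The double-negative cells were again the shallower, with median UMIs of 8695 against 12724, and mt-Nd1 and mt-Nd3 were again lower by 0.5. Markers of other cells moved with the groups here too. The α-cell markers summed to 309 against 155 CPM, led by Ttr in the first, which was past 0.5, and by Gcg in the second, with 3 of 6 at 0 in double-negative cells. Macrophage markers were at 37.8 against 159, led by C1qa, which was lower by 0.5, with 6 of 9 at 0. Acinar markers were at 13.1 against 368, led by Ctrb1, with 3 of 7 at 0, and ductal markers at 256 against 198, led by Krt7, with 3 of 5 at 0. The δ-cell markers were at 24.7 against 79.7, led by Sst, with 2 of 4 at 0, and the pancreatic polypeptide cell markers at 74.1 against 444, led by Ppy and Pyy, with none at 0. Their part in the contrast was not tested. Both libraries came from the same pool of islets and the rule pair was the same, so that the agreement of response genes follows in part from the rule.

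Other gene groups stood differently in the 2 libraries. Of 17 listed targets of NF-κB, which IL-1β activates, all were compared in the combined library and 9 were lower by 0.5 in its double-negative cells, while in the IFN-γ library 8 were compared and none was past 0.5. A target could enter through its level in the double-positive cells, so the counts follow in part from the detection limit. Cxcl10, a chemokine gene, was at 116 (92.1 to 145) against 2958 there and at 26.2 (15.99 to 40.4) against 84.2 with IFN-γ alone. Mafa was at 135 (109 to 165) against 46.5 in the combined library, with an ln fold of 0.47 that was under the size of 0.5. Hadh was at 253 (217 to 293) against 79.3 there. The differences between the libraries were not tested. By Hsp70 content, 3.32, 4.83, 10.2 and 45.7% of the β-cells with 0, 1 or 2, 3 to 9 and 10 or more UMIs were double-negative, of 752, 269, 157 and 46 cells.

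**Figure D4:**
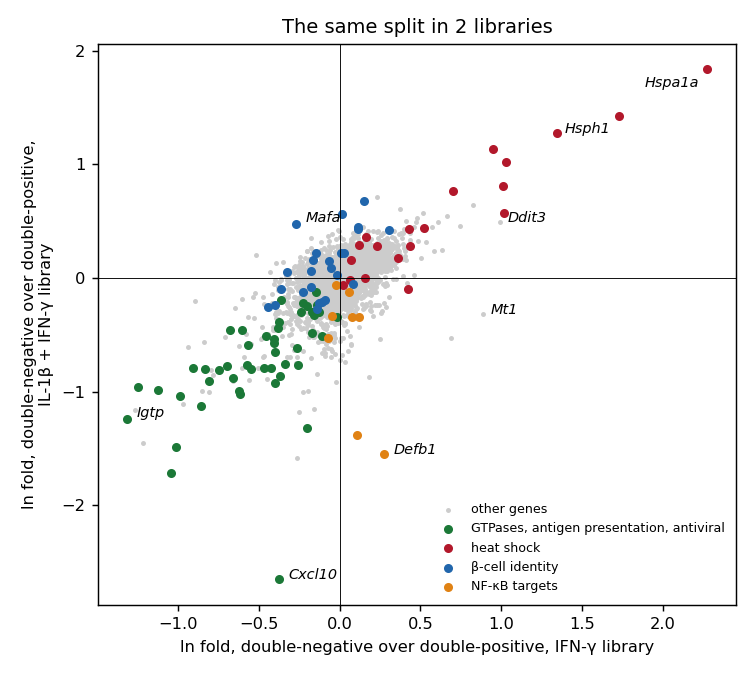
ln fold of double-negative over double-positive β-cells in the IFN-γ library (x axis) and the combined library (y axis), 1 point per gene compared in both, without the rule pair. Of 20 heat shock genes 9 are past 0.5 on the x axis and 8 on the y axis, and of the 12 GTPases plotted 7 and 10 are past it downward, while Mt1 is at 0.89 with IFN-γ and -0.31 with both cytokines.

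Other endocrine cells of the IFN-γ library were counted with the same pair of genes. Of 253 α-cells, 11 (4.35%, 2.19 to 7.65%) held neither Iigp1 nor Gbp2, at a median of 8107 UMIs, and 1 of 39 δ-cells (2.56%, 0.0649 to 13.5%) did, at 7368. The α-cell interval overlapped that of the 1206 β-cells, whose median depth was 11287.5 UMIs. In the combined library 4 of 138 α-cells (2.90%, 0.795 to 7.26%) and 0 of 20 δ-cells (up to 16.8%) held neither, against 6.13% of the β-cells. The differences between cell types were not tested.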

How the data were processed

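Whole islets were exposed to the cytokines, dissociated and captured on a 10x Genomics Chromium Controller with 3′ chemistry (v3 in the study's methods, v2 in the sample labels). The authors made the deposited count matrices, which hold UMI counts per gene and barcode, with Cell Ranger (matrix headers name software 3.0.0; its version is otherwise not given in the sources used here) on mm10, per the submitters' processing notes. The study removed barcodes outside 200 to 4000 genes or over 12% mitochondrial UMIs and gave ln fold changes per 10000 UMIs, and the same limits and scale were used here, with at least 4000 UMIs added. Doublets were otherwise not removed.

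The groups, gene lists and named genes were chosen with earlier results of these data known. Named genes are the rule pair, the listed genes and the 12 largest ln folds in each direction, leaving out listed genes, mitochondrial genes and markers. UMIs were summed over the cells of a group, scaled to 10000 with a pseudocount of 1 for folds and to 1000000 for levels, and given exact Poisson, binomial or conditional binomial 95% intervals. With 1 library per condition no test was made. A gene at 0 is given with its upper limit. Results on 1 item are not reported here. Thinning drew 4000 UMIs per cell at random once. Alternatives were other limits on genes, mitochondrial share, depth and insulin, thinning, Scrublet, other rule genes or thresholds, totals without hormone genes, per-cell means, a pseudocount of 0.1 and no detection limit. Coordinates of genes are from GENCODE M21 and promoters from RefSeq (both GRCm38). The code was tested on simulated data. Python 3.11.15, numpy 2.4.6, scipy 1.17.1, pandas 2.3.3, scanpy 1.11.5 and matplotlib 3.10.9 were used.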

Additional observations from a re-analysis of the deposited data

Results flagged for a closer look

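Of the listed genes, 10 had a ratio of double-negative over double-positive cells that lay on opposite sides of 1 in the IFN-γ and the combined library, with counting intervals that left out 1 in both and a ratio of at least 1.2 or its inverse. Each library is a single sample, so the difference between the libraries was not tested. A ratio below 1 with IFN-γ and above 1 with both cytokines was found for 3 genes of β-cell identity and 1 early response gene. The levels of the 3 identity genes were lower in the combined library in both groups of cells. Mafa was at 348 CPM in double-negative and 488 in double-positive cells with IFN-γ, and at 135 and 46.5 with both cytokines. The early response gene, Dusp1, was higher in the combined library in both groups. Mafa, a transcription factor of mature β-cells, had a ratio of 0.713 (0.629 to 0.807) in the IFN-γ library and 2.91 (2.31 to 3.62) in the combined library. Ucn3, a peptide of mature β-cells, had 0.767 (0.61 to 0.953) in the IFN-γ library and 1.94 (1.404 to 2.62) in the combined library. Pax6, an endocrine transcription factor, had 0.785 (0.663 to 0.923) in the IFN-γ library and 1.32 (1.07 to 1.61) in the combined library. Dusp1, a phosphatase of MAP kinases, had 0.238 (0.0487 to 0.706) in the IFN-γ library and 2.54 (1.77 to 3.56) in the combined library, the first from 3 UMIs.

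The other 6 genes had a ratio above 1 in the IFN-γ library and below 1 in the combined library. In double-positive cells all 6 stood higher in the combined library. Defb1 was at 52.3 CPM there with IFN-γ and 914 with both cytokines, and Mt1 at 1288 and 3914. Double-negative cells held Defb1 at 101 and 116, and Mt1 at 3263 and 2829. The metallothionein Mt1 had a ratio of 2.53 (2.43 to 2.64) in the IFN-γ library and 0.723 (0.691 to 0.756) in the combined library, and Mt2 had 2.23 (2.06 to 2.42) in the IFN-γ library and 0.568 (0.527 to 0.612) in the combined library. Defb1, a defensin gene, had 1.93 (1.501 to 2.45) in the IFN-γ library and 0.127 (0.101 to 0.158) in the combined library, and the chemokine gene Cxcl16 had 2.13 (1.28 to 3.38) in the IFN-γ library and 0.431 (0.291 to 0.614) in the combined library. Atf4, a factor of the integrated stress response, had 1.42 (1.24 to 1.61) in the IFN-γ library and 0.676 (0.585 to 0.778) in the combined library, and Xbp1, a factor of the unfolded protein response, had 1.26 (1.09 to 1.45) in the IFN-γ library and 0.724 (0.604 to 0.861) in the combined library.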

How the results depend on the processing

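The alternatives were run for 5 results, the share of double-negative cells, the counts of genes higher and lower, and the Hspa1a and GTPase ratios. None reversed the direction of either ratio, and the share and the counts have no direction to reverse. The share of double-negative β-cells was 7.55%, and 4.50% with at least 8000 UMIs, 10.9% after thinning to 4000 UMIs, 4.98% with Igtp and Irgm1 as the rule pair, and 10.4% with at most 1 UMI against at least 2 of each, while 5 other settings moved it by less than its interval. A pseudocount of 0.1 gave 204 genes higher in place of 23 and 401 lower in place of 50, and leaving the hormone genes out of the totals gave 85 lower. The Hspa1a ratio was 21.8, and 24.0 with at least 8000 UMIs, 31.6 with Igtp and Irgm1 as the pair and 10.9 without the 10 double-negative cells highest in Hspa1a and Hspa1b, a setting chosen after seeing the data. The GTPase ratio was 0.133, and 0.116 with insulin at 10% of UMIs, 0.222 after thinning, 0.0407 with Igtp and Irgm1 (themselves on the list), 0.160 with the wider threshold and 0.153 without those 10 cells. The causes were not tested. Of the other settings, 9 for the Hspa1a ratio, 7 for the GTPase ratio, 13 for the higher and 12 for the lower genes moved the value by less than its interval or, for counts, stayed within 1.5 times. No paired analysis was possible because each condition is 1 library. At the summed depth of the double-negative cells, 764233 UMIs, a gene at 0 could be as high as 4.83 CPM, and weak genes such as Ifngr2 were not resolved.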
